A study of Mus musculus with 6 samples.

Results

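The 10 genes described here, Pik3ip1, Tsc22d3, Fkbp5, Klf9, Zbtb16, Sgk1, Nr3c1, Foxo1, Foxo3 and Sesn1, belong to the transcriptional responses to glucocorticoid hormones and to the FOXO factors. They were read from a table of 60832 mouse genes by their symbols, and they were chosen with the difference between the bevacizumab-resistant and bevacizumab-sensitive libraries already known, Pik3ip1 in particular. Differences of these 10 genes between the groups are therefore given as values with no test.

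The study compared liver sinusoidal endothelial cells (LSECs), the endothelium that lines the small blood channels of the liver, from mice bearing liver tumors grown from HCT116 cells, an established line of human colorectal carcinoma. The 3 sensitive libraries are labelled as LSECs from bevacizumab-sensitive xenografts, and the 3 resistant libraries as LSECs from bevacizumab-resistant ones. According to the methods, the hosts were male BALB/c nude mice, which have few mature T cells. Tumor cells were injected into the left liver lobe, bevacizumab (an antibody against human VEGF-A) was injected intraperitoneally for several weeks in the resistant arm, and the vehicle arm received IgG. LSECs were captured with beads against CD146, and the labels give 24 h of culture for every library. No source says which mouse each library came from or whether animals were pooled, so the spread between libraries may be partly technical.

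In the absence of hormone the glucocorticoid receptor, encoded by Nr3c1, is held in the cytoplasm by chaperones. Bound by corticosterone it enters the nucleus and activates genes such as Tsc22d3, Fkbp5, Klf9, Zbtb16 and Sgk1. FOXO factors are excluded from the nucleus when PI3K and AKT signal and return to it when that signal falls, so FOXO target genes are commonly read as the inverse of PI3K activity. The pathways meet at several of these genes: Sgk1 is a kinase that phosphorylates FOXO proteins, and Pik3ip1 encodes a membrane protein that inhibits PI3K.

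Promoter windows of 250 bases before to 50 bases after annotated starts were available from RefSeq (GRCm38.p6) for 8 of the 10 genes, as 16 windows. Zbtb16 and Nr3c1 had no entry. The windows shown hold the only matches, among these 16, to a palindromic glucocorticoid response element (AGAACA, any 3 bases, then TGTTCT) or to the FOXO site GTAAACA, searched on both strands, and the window of Pik3ip1 is shown because that gene differed most. Matches are in capitals. The lines give the 250 bases upstream of one start of Sgk1 (chr10:21993640-21993889, plus strand), the 250 bases upstream of Klf9 (chr19:23140976-23141225, plus strand), 27 bases just after one start of Sesn1 (chr10:41810586-41810612, plus strand), and the 250 bases upstream of the RefSeq start of Pik3ip1 (chr11:3330481-3330730, plus strand). The Sgk1, Sesn1 and Pik3ip1 stretches lie inside the GENCODE spans of these genes given with their values, which begin further upstream.
Sgk1: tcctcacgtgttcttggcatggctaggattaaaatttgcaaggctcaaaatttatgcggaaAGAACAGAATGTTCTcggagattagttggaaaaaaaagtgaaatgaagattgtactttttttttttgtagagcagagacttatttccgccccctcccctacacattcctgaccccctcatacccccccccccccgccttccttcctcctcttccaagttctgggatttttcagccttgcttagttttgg
Klf9: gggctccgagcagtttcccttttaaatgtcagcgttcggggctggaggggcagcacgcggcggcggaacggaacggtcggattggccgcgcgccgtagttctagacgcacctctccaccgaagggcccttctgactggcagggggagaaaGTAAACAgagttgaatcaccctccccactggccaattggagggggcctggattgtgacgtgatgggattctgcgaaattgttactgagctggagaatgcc
Sesn1: aaccttctacTGTTTACcagccttttg
Pik3ip1: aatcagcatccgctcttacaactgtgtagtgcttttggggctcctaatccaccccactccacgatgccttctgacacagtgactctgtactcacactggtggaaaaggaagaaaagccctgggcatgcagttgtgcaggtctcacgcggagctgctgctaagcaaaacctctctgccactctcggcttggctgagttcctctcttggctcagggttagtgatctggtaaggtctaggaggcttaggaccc
The Sgk1 match lay 189 to 175 bases upstream of the start, in 1 of the 6 windows of that gene. Only 3 of 32851 windows in the genome (0.00913%) held the exact palindrome, and 156 (0.475%) held the looser form in which GNACA and TGTNC are separated by 3 bases, which the same Sgk1 site also satisfies. Klf9 carried the FOXO site 100 to 94 bases upstream, and Sesn1 carried it on the opposite strand, 23 to 29 bases after the start. The FOXO site occurred in 1199 windows (3.65%). The Pik3ip1 window held neither. These matches describe letters in the reference, and the gene-level counts do not separate the starts of Sgk1 or Sesn1.

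Library totals were 17599326 to 20726684 counts, and the lowest count behind any value of the 10 genes was 166 (Zbtb16 in sensitive replicate 2). Levels are given in CPM, counts scaled to the library total but not to gene length. Sensitive replicate 2 stood apart: its root mean square difference in log2 CPM from each of the other 5 libraries was 1.33 to 1.56, against 0.616 to 0.845 among the other 10 pairs. The labelled cell type was also not the main signal, since 14 LSEC markers summed to 81.3 to 512.8 CPM and 14 pan-endothelial markers to 62.1 to 477.9 CPM, whereas 18 macrophage and Kupffer cell markers summed to 28496 to 42381 CPM. Mcam, which encodes the CD146 used for capture, had 0.30 to 3.84 CPM. In such bulk libraries, fewer cells of a type and less RNA per cell cannot be told apart. Between the groups, 0 of 15474 genes tested (0%) passed an adjusted p of 0.05 in edgeR's quasi-likelihood test, with 476 genes (3.08%) at an unadjusted p under 0.05. DESeq2 called 24 genes, none of them in the pathway lists described here.

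Across the 6 libraries the glucocorticoid targets Sgk1, Tsc22d3, Fkbp5 and Klf9 were the most abundant of the 10 genes per unit of transcript length, while the target Zbtb16 was among the lowest. Means in FPKM, a count scaled for transcript length and library depth, were 74.1 ± 28.7 for Sgk1, 73.1 ± 9.98 for Tsc22d3 and 63.9 ± 9.87 for Fkbp5 (SD, n = 6), each above at least 95.1% of the genes tested. Klf9 followed with 30.0 ± 9.85 FPKM. A middle tier held Pik3ip1 with 10.5 ± 5.85 FPKM, Nr3c1 with 9.67 ± 3.46 FPKM and Foxo3 with 9.54 ± 0.76 FPKM. The lowest were Sesn1 with 6.77 ± 2.09 FPKM, Zbtb16 with 4.54 ± 2.87 FPKM and Foxo1 with 2.07 ± 0.39 FPKM. Some neighbors in this order were not separated by their spread. Sgk1 exceeded Tsc22d3 in 3 of 6 libraries, Pik3ip1 exceeded Nr3c1 in 3 of 6 and Nr3c1 exceeded Foxo3 in 4 of 6. Fkbp5 exceeded Klf9 in all 6, and each of the remaining neighbors was ordered the same way in 5 of 6.

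**Figure D1:**
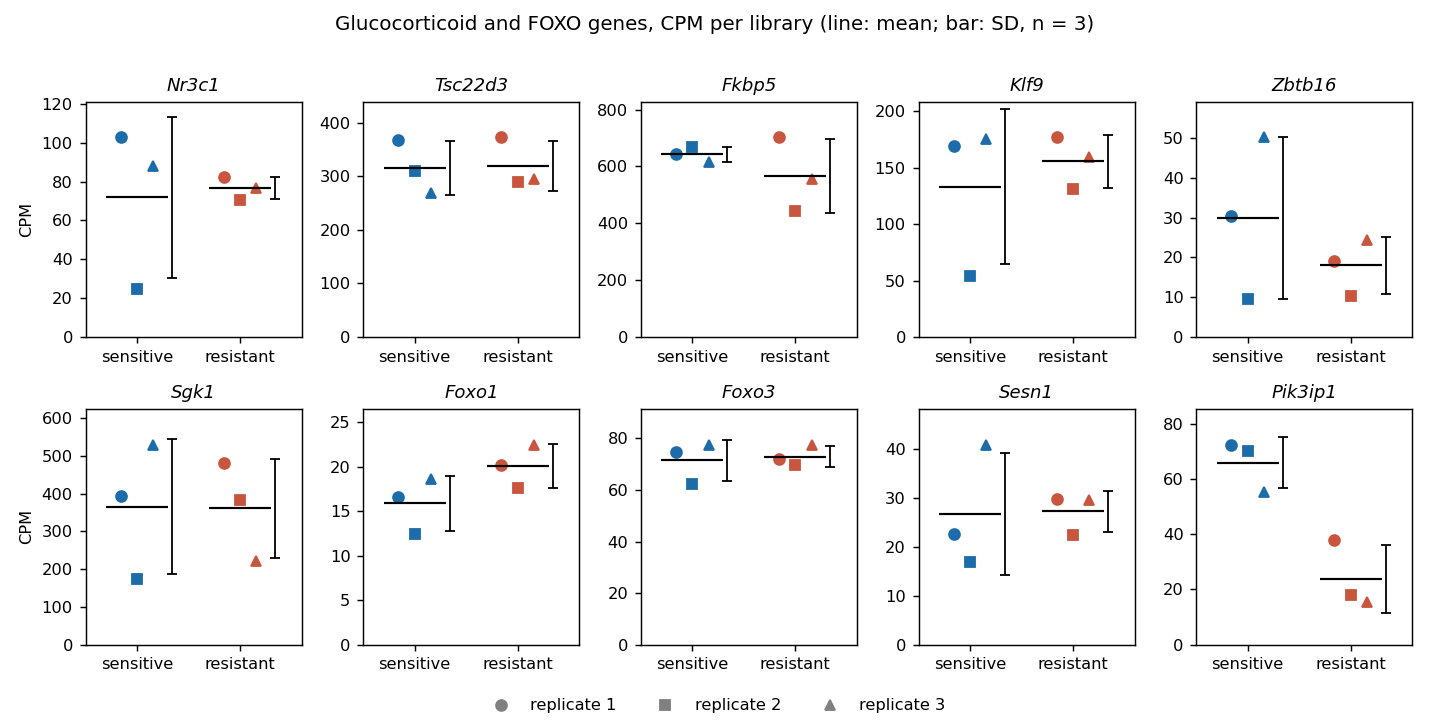
CPM of each of the 10 genes in each library on a linear axis, with 3 sensitive and 3 resistant libraries and the group means with SD. Only for Pik3ip1 do the groups lie apart (55.4 to 72.2 CPM against 15.5 to 37.7 CPM), and sensitive replicate 2 is the low point for Nr3c1, Klf9 and Zbtb16.

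Pik3ip1 (chr11:3330401-3342971, plus strand, GRCm38) was the only one of the 10 genes whose groups did not overlap. It had 72.2, 69.9 and 55.4 CPM in sensitive replicates 1 to 3 (1418, 1231 and 1138 counts) and 37.7, 17.9 and 15.5 CPM in resistant replicates 1 to 3 (781, 354 and 298 counts). All 3 resistant libraries lay below all 3 sensitive ones, and resistant replicate 1 was the nearest to them. The group means were 65.8 ± 9.15 and 23.7 ± 12.2 CPM (SD, n = 3 each), a 2.78-fold lower level in the resistant group. Over single pairs of libraries, the sensitive level was 1.47-fold (sensitive replicate 3 over resistant replicate 1) to 4.66-fold higher (sensitive replicate 1 over resistant replicate 3). The fitted log2 fold change, resistant over sensitive, was -1.56 ± 0.36 (SE). Without each library in turn it was -2.01 to -1.33. The same separation in the same direction was found for 3.38% of all genes tested, and 432 of them (2.79%) had a more negative fold change. Pik3ip1 was selected on this contrast, so nothing is read from that place. Its exons share 91 bases with Gm12592, which is annotated on the opposite strand and had 0 to 25 counts. Whether the counting used strand is not given in the sources used here.

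Markers of lymphocytes, neutrophils and macrophages were set beside Pik3ip1 as summed CPM. The 16 markers of T, NK and B lymphocytes summed to 5.70, 17.6 and 4.28 CPM in the sensitive libraries. In the resistant libraries they summed to 3.86, 1.11 and 1.35 CPM. These sums did not overlap, but only narrowly, with 4.28 CPM in sensitive replicate 3 against 3.86 CPM in resistant replicate 1. They rest on few counts: between 2 and 12 of the 16 genes had no count in a library, and only 2 of the 16 were expressed enough to be tested. Cd3d, a subunit of the T cell receptor complex, had 17, 94 and 0 counts against 5, 2 and 0, Gzma, a granzyme of cytotoxic cells, had 16, 70 and 7 against 11, 0 and 2, and Klrb1c had no count in any library. The 12 neutrophil markers summed to 5347, 7000 and 649 CPM in the sensitive libraries and to 2163, 1564 and 339 CPM in the resistant ones. Those groups overlapped, since sensitive replicate 3 had a smaller neutrophil sum than resistant replicates 1 and 2. The macrophage sums, 28496 to 42381 CPM in the sensitive and 30858 to 35486 CPM in the resistant libraries, overlapped as well. By single genes, the groups did not overlap for 1 of 12 neutrophil markers, 2 of 18 macrophage markers and 0 of the 2 lymphocyte markers tested. The share over all genes tested was 8.39%. The part of these cells in the Pik3ip1 values was not tested.

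**Figure D2:**
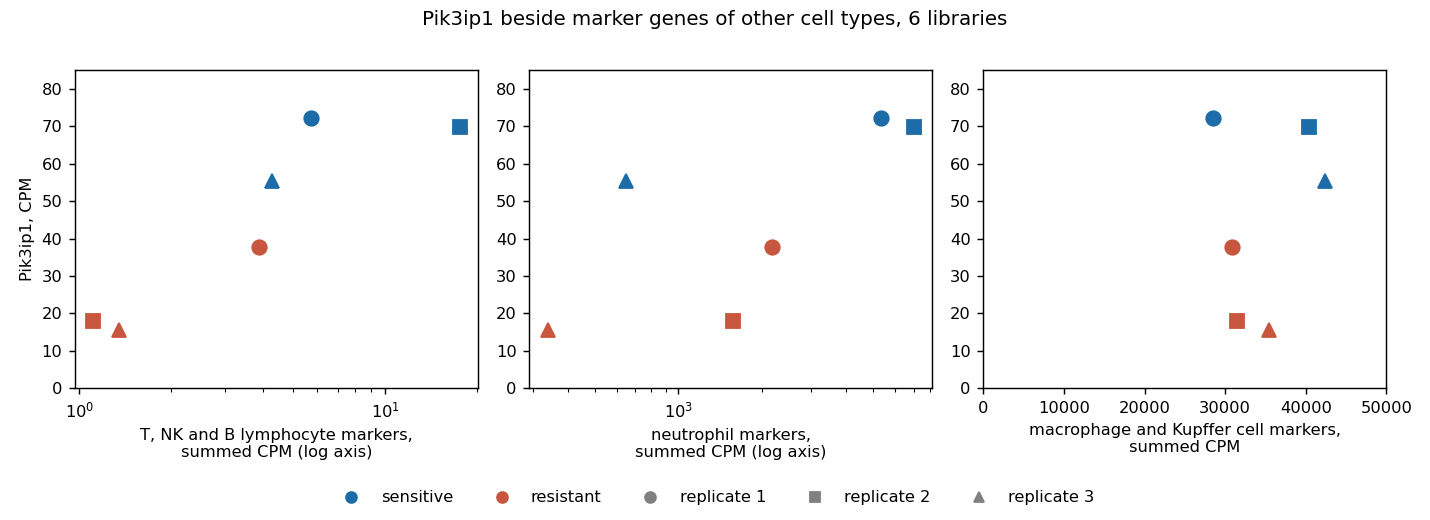
Pik3ip1 CPM in each of the 6 libraries against the summed CPM of lymphocyte, neutrophil and macrophage markers, 1 point a library. The lymphocyte and neutrophil axes are log, and the macrophage and Pik3ip1 axes are linear. The lymphocyte sums rest on few counts and fail to overlap by a narrow margin (4.28 to 17.6 CPM against 1.11 to 3.86 CPM). The neutrophil and macrophage sums overlap between the groups.

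The receptor gene Nr3c1 (chr18:39410545-39519421, minus strand) had 102.8, 24.8 and 88.1 CPM in the sensitive libraries and 82.4, 70.8 and 76.8 CPM in the resistant ones. The resistant libraries lay between the sensitive ones, and the low value was sensitive replicate 2. Group means were 71.9 ± 41.5 and 76.7 ± 5.83 CPM (SD, n = 3 each), and the log2 fold change was 0.07 ± 0.43 (SE), or -0.31 without sensitive replicate 2.

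Tsc22d3 (chrX:140539528-140600659, minus strand) encodes GILZ, a leucine zipper protein that carries part of the anti-inflammatory action of glucocorticoids. It had 368.6, 310.8 and 268.4 CPM in the sensitive libraries and 372.5, 289.6 and 294.7 CPM in the resistant ones. The groups overlapped over nearly their whole range, with means of 315.9 ± 50.3 and 318.9 ± 46.5 CPM and a log2 fold change of -0.06 ± 0.21. Fkbp5 (chr17:28399094-28517527, minus strand) encodes FKBP51, a co-chaperone that lowers the affinity of the receptor for hormone and is itself induced by it. Its levels were 644.9, 669.1 and 616.3 CPM in the sensitive libraries and 702.1, 443.9 and 555.0 CPM in the resistant ones. The 3 sensitive libraries were close together, with a coefficient of variation of 4.11%, while the resistant ones ran from the highest to the lowest value of the 6 and varied by 22.8%. The log2 fold change of Fkbp5 was -0.26 ± 0.23.

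Klf9 (chr19:23141226-23168134, plus strand), a Krüppel-like zinc finger factor, had 169.4, 53.9 and 175.8 CPM in the sensitive libraries and 176.7, 130.8 and 159.1 CPM in the resistant ones. Sensitive replicate 2 was the lowest by far and the other sensitive libraries lay within the resistant range, and the log2 fold change went from 0.20 ± 0.38 to -0.15 without that library. Zbtb16 (chr9:48654297-48836222, minus strand) encodes PLZF, a zinc finger repressor known from innate-like lymphocytes and as a glucocorticoid-induced gene. It had 30.5, 9.43 and 50.2 CPM in the sensitive libraries and 19.1, 10.4 and 24.4 CPM in the resistant ones. Its groups overlapped, and its fold change, -0.77 ± 0.56 on the log2 scale, was the second most negative of the 10 genes and ran from -1.18 to -0.16 without single libraries. Sgk1 (chr10:21882184-21999903, plus strand), the serum- and glucocorticoid-regulated kinase, had 394.6, 173.6 and 529 CPM in the sensitive libraries and 480.7, 383.2 and 220.2 CPM in the resistant ones. Each group held one low library, sensitive replicate 2 and resistant replicate 3, and the log2 fold change was -0.06 ± 0.42.

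Among the FOXO factors, Foxo3 (chr10:42181841-42276755, minus strand) varied least of the 10 genes over the 6 libraries, with 74.9, 62.3 and 77.4 CPM in the sensitive libraries and 72.0, 69.5 and 77.5 CPM in the resistant ones. Its means were 71.5 ± 8.07 and 73.0 ± 4.05 CPM and its log2 fold change was -0.03 ± 0.17. Foxo1 (chr3:52268336-52353221, plus strand) had 16.6, 12.4 and 18.6 CPM in the sensitive libraries and 20.2, 17.6 and 22.4 CPM in the resistant ones. The ranges overlapped only through sensitive replicate 3, which exceeded resistant replicate 2 by less than the spread within either group. The log2 fold change of 0.28 ± 0.23 was the most positive of the 10 and stayed between 0.19 and 0.41 without single libraries. Per length, the related Foxo4 had 8.25 FPKM over the 6 libraries, between Foxo3 and Foxo1, and Foxo6 had 0.08 FPKM and was not tested.

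Sesn1 (chr10:41809935-41908424, plus strand) encodes sestrin 1, a stress protein under p53 and FOXO control that restrains mTORC1. It had 22.6, 16.8 and 40.8 CPM in the sensitive libraries and 29.7, 22.4 and 29.5 CPM in the resistant ones. The resistant libraries again lay within the sensitive range, and the log2 fold change was -0.03 ± 0.33. Its relative Sesn2 was more abundant, with 35.7 FPKM against 6.77 FPKM, and Sesn3 had 0.31 FPKM.

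**Figure D3:**
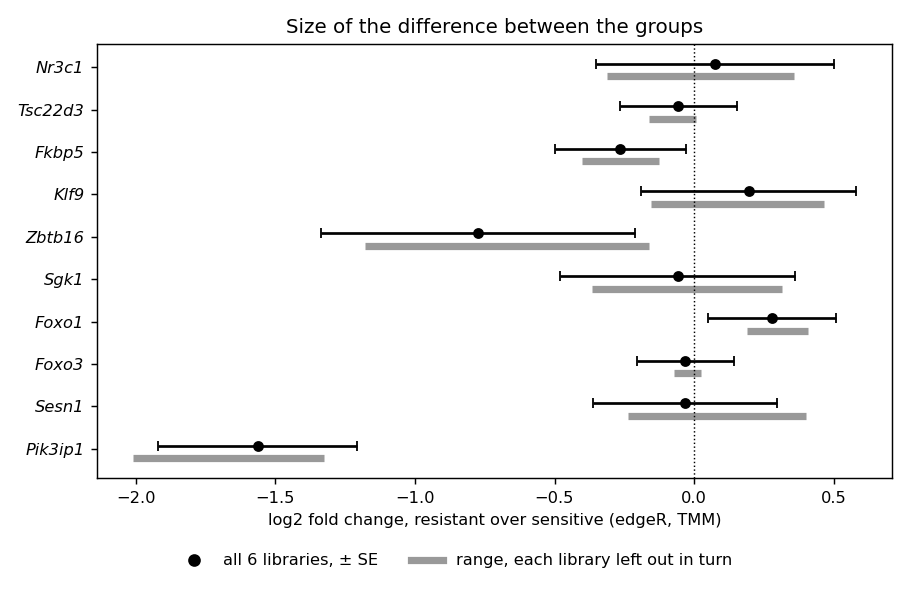
Log2 fold change, resistant over sensitive, of the 10 genes with the SE of the fit, beside the values with each library left out. Pik3ip1 lies at -1.56 and runs from -2.01 to -1.33 without single libraries, whereas Klf9, Sgk1, Nr3c1, Foxo3, Sesn1 and Tsc22d3 take both signs.

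Of the 10 genes, 3 had a higher and 7 a lower fitted level in the resistant group, with a median log2 fold change of -0.04. Over all genes tested, 7855 were higher and 7619 lower, with a median of 0.01. The split of the 10 depended on the scaling: with library totals alone, Tsc22d3, Foxo3 and Sesn1 turned positive, at 0.01, 0.03 and 0.02. The groups did not overlap for 1 of the 10, against 8.39% of all genes in either direction. The 5 glucocorticoid targets ran from -0.77 for Zbtb16 to 0.20 for Klf9 on the log2 scale, and the FOXO factors and Sesn1 from -0.03 to 0.28.

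Sensitive replicate 2 was the lowest library for 7 of the 10 genes in CPM, and it was the lowest for 47.7% of all genes tested. TMM is a library scaling that leaves out genes with extreme ratios between libraries or extreme abundance. Scaled by TMM, sensitive replicate 2 was the lowest for 5 of 10, against 40.7% of all genes. The mean of the other 5 libraries exceeded it 3.40-fold for Nr3c1, 3.01-fold for Klf9, 2.85-fold for Zbtb16 and 2.31-fold for Sgk1. It exceeded it 1.03-fold for Tsc22d3, while for Fkbp5 and Pik3ip1 that library lay above the mean of the others (0.885-fold and 0.568-fold). That library was the lowest for a large share of all genes too, so nothing about the receptor or its targets is read from these values. It also had the highest neutrophil and lymphocyte sums of the 6, and the part of these cells in its values was not tested.

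Genes next to these in the pathways were taken as lists, and in each of them 0 genes passed an adjusted p of 0.05 in edgeR, in DESeq2 and in limma-voom. Of 27 other glucocorticoid targets, 11 had a higher and 16 a lower level in the resistant group, at a median of -0.13 on the log2 scale. An unadjusted p under 0.05 in edgeR was found for 1 of the 27, against 3.08% of all genes tested. That one was Tat, a liver enzyme gene of amino acid breakdown with 8, 0 and 3 counts against 19, 27 and 14, named here after its values were seen. Without single libraries the median ran from -0.33 (without resistant replicate 1) to 0.04 (without resistant replicate 3), and 0 to 5 genes had an unadjusted p under 0.05. The hepatocyte markers also leaned to the resistant side: 8 of the 9 tested, of 11 listed, had a higher fitted level, with a median of 1.00. For 1 of the 9, Fga, the groups did not overlap, against 8.39% of all genes tested. Sums of the 11 hepatocyte markers were 98.6, 95.3 and 36.8 CPM in the sensitive libraries against 78.8, 193.8 and 102.2 CPM in the resistant ones. The part of hepatocytes in the Tat values was not tested. By size, the well-expressed genes of the list with the widest differences were Usp2, a deubiquitinase, at 1.89 ± 0.92 (log2 fold change ± SE), Il1r2, the interleukin 1 decoy receptor, at -1.88 ± 0.95, and Lcn2, a neutrophil granule protein, at -1.75 ± 1.06. Anxa1, an anti-inflammatory annexin, followed at -0.84 ± 0.53, and the adjusted p of all 4 was 0.940 in edgeR. None of these 4 separated the groups. Il1r2 had 175.6, 186.5 and 17.7 CPM in the sensitive libraries and 60.0, 41.4 and 8.89 CPM in the resistant ones, which is the order of the neutrophil sums.

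Of 28 other FOXO targets, 26 were tested, 12 with a higher and 14 with a lower level in the resistant group, at a median of -0.05 on the log2 scale that ran from -0.11 (without sensitive replicate 2) to 0.06 (without resistant replicate 1). An unadjusted p under 0.05 in edgeR was found for 4 of the 26, among them Cat, Gadd45a and Igfbp1, against 3.08% of all genes. Without single libraries that count ran from 1 (without sensitive replicate 1 or without resistant replicate 2) to 6 (without sensitive replicate 2). Gadd45a, a growth arrest and DNA damage gene, had 59.8, 68.6 and 48.7 CPM in the sensitive libraries and 40.8, 25.6 and 24.8 CPM in the resistant ones. The groups did not overlap for 3 of the 26 tested, Gadd45a, Cat and Igfbp1, against 8.39% of all genes tested in either direction. Gadd45a was lower in the resistant group, with a log2 fold change of -1.05 ± 0.28 (adjusted p = 0.940, edgeR). Cat, the gene of catalase, lay the other way, with 352.6, 96.3 and 356.6 CPM against 423.7, 638.2 and 845.9 CPM and a log2 fold change of 1.23 ± 0.49. Igfbp1, a liver-secreted binding protein, rested on 7, 10 and 3 counts against 13, 435 and 34. The 435 counts are from resistant replicate 2, which also had the highest hepatocyte sum (193.8 CPM), and the part of hepatocytes in them was not tested. Pdk4, a mitochondrial kinase induced by fasting, was at -0.73 ± 0.54.

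Partners of the receptor and enzymes of steroid conversion gave a median of 0.16 over 14 tested genes, 10 higher and 4 lower, which became 0.03 without sensitive replicate 2. Hsp90ab1, a chaperone that holds the receptor ready for hormone, was the only one whose groups did not overlap in CPM. That is 1 of 14, against 8.39% of all genes tested. Hsp90ab1 had 1217, 1221 and 905.5 CPM against 1385, 1385 and 1558 CPM and a log2 fold change of 0.30 ± 0.24. Divided by the TMM factors, 0.881 for sensitive replicate 2 and 1.067 for resistant replicate 1, these libraries change order and the groups overlap. Hsp90aa1 was at 0.38 ± 0.22, and the coactivator gene Ncoa1 was at 0.35 ± 0.41. Of 28 PI3K and AKT pathway genes, 27 were tested, 20 with a higher and 7 with a lower level and a median of 0.17, which became -0.07 without sensitive replicate 2, 0.09 without resistant replicate 1 and 0.29 without sensitive replicate 3. Igf1r, the insulin-like growth factor receptor, lay at -0.59 ± 0.27. Phlpp2, Pdpk1 and Inpp4a, a phosphatase that acts on AKT, the kinase that activates it and a lipid phosphatase, lay at 0.53 ± 0.72, 0.48 ± 0.43 and -0.39 ± 0.23. No gene of these lists had an unadjusted p under 0.05.

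The 9 tested relatives of the 10 genes had a median of -0.02, with 4 higher and 5 lower, and that median was -0.04 to 0.12 without single libraries. Among the well-expressed ones Tsc22d2 lay at 0.58 ± 0.57 and Fkbp4 at -0.18 ± 0.31, while Tsc22d4 and Tsc22d1 were both at 0.15. The 11 p53 targets, listed because Sesn1 is also one of them, had a median of 0.38, with 8 higher and 3 lower, and that median was 0.04 without resistant replicate 3 and 0.37 to 0.53 without any other library. Zmat3 lay at 0.75 ± 0.40, Ccng1 at 0.74 ± 0.32, Mdm2, the ubiquitin ligase of p53, at 0.62 ± 0.30 and Eda2r at 0.44 ± 0.62. Among them the groups of Bbc3 alone did not overlap, 1 of 11 against 8.39% of all genes tested. No gene of either list passed an unadjusted p of 0.05.

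**Figure D4:**
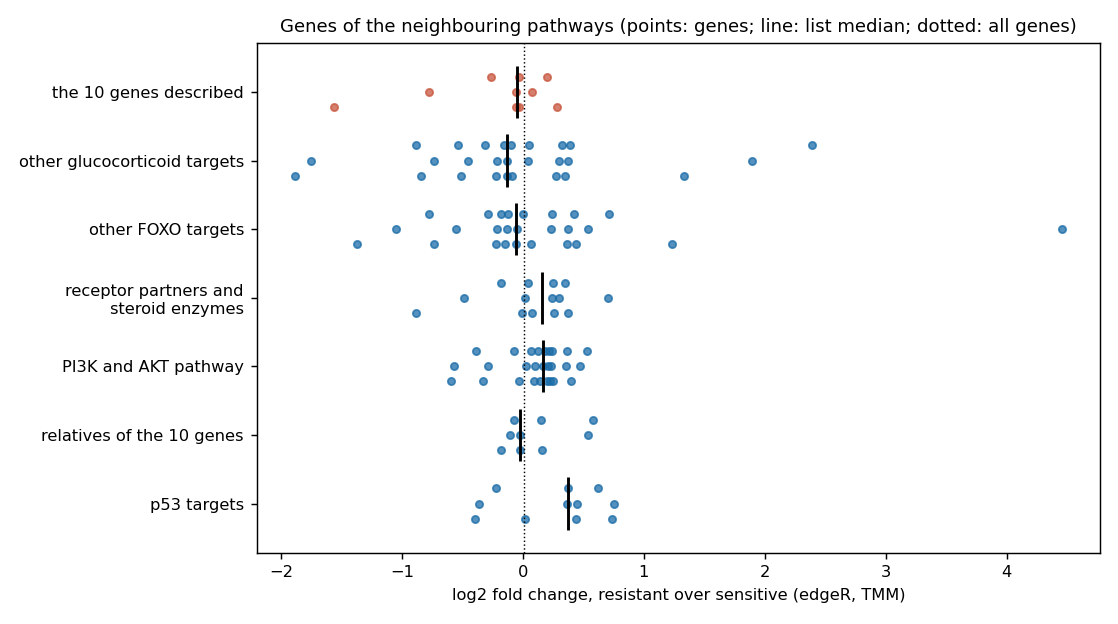
Log2 fold change, resistant over sensitive, of each tested gene (points) in the 10 genes described and in 6 lists of neighboring pathway genes, with list medians (bars) and the median of all genes tested (dotted line). The list medians lie between -0.13 and 0.38, and the widest point is Igfbp1 at 4.46, which rests on 435 counts in 1 resistant library.

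The genes most like Pik3ip1 across the 6 libraries, among 9642 of at least moderate abundance, were the interferon-inducible GTPase gene Gbp2b, the ubiquitin ligase subunit gene Asb2 and the antiviral gene Rsad2, with root mean square differences in centered log2 CPM of 0.147, 0.184 and 0.224. Asb2 had 37.2, 45.3 and 35.7 CPM in the sensitive libraries and 24.7, 9.05 and 11.03 CPM in the resistant ones. Rsad2 had 62.5, 61.1 and 44.95 CPM against 43.9, 16.9 and 10.8 CPM. In both, resistant replicate 1 was the nearest to the sensitive libraries, as for Pik3ip1, which follows from choosing them by profile and is no further likeness. Tsc22d3 was nearest to Wdr43, Gnl3 and Eed (0.0318 to 0.0377), and Fkbp5 to Gigyf1, an unannotated locus and Vars2 (0.0487 to 0.0622). Likeness here is a description over 6 libraries that share depth and composition.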

How the data were processed

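RNA was sequenced from 3 libraries of LSECs labelled bevacizumab-sensitive and 3 labelled bevacizumab-resistant. Per the submitters' processing notes, reads were aligned with HISAT2 2.0.5 to mm9, counted per gene with featureCounts 1.5.0-p3 and compared with DESeq2 1.16.1. The labels name rRNA depletion and the methods also poly(A) selection. The authors deposited raw counts per gene and FPKM (counts scaled for gene length and library total) in a single table, and both were used. A further deposited table holds the authors' own comparison of the groups and was not used. The series' design text names LX-2 cells, while every sample label names LSECs.

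Counts were divided by library totals (17599326 to 20726684 counts) for CPM. Groups were compared on counts with edgeR 4.0.16 (R 4.3.3, filterByExpr, TMM, robust quasi-likelihood test, two-sided, Benjamini-Hochberg over 15474 genes), with limma 3.58.1 and DESeq2 1.42.0 as alternatives. The fitting script was tested on simulated data. The common biological coefficient of variation was 42.2%. Although mm9 is named, gene IDs matched GENCODE M21 (GRCm38) for 52083 of 60832 rows, and coordinates given here are GRCm38 by ID. The 10 genes and all lists were chosen with earlier results of these data known. Besides the 10, the text names up to 4 genes a list with the largest absolute log2 fold change among those with a mean log2 CPM of at least 3, and the 3 nearest profiles of Pik3ip1, Tsc22d3 and Fkbp5. Other genes named, such as Tat, Igfbp1, Bbc3, Emcn, Kdr, Csf3r, Cd3d and Gzma, fall outside this rule and were chosen afterwards. A few genes that this rule names are not reported here. Counts of 3 or fewer were taken as the floor.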

Additional observations from a re-analysis of the deposited data

How the results depend on the processing

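No gene passed an adjusted p of 0.05 with other size factors, with limma-voom, with at least 10 counts in every library or without any single library (0 to 0 genes). With no filter on low counts 2 genes passed (2036 at an unadjusted p under 0.05), and with DESeq2 24 passed (732 unadjusted). The cause was not tested. All 6 pathway lists stayed at 0 under every alternative. The labels share replicate numbers without saying what they mark, and deviations of same-numbered libraries correlated at -0.000932, 0.0343 and 0.194, so the numbers were not taken to pair the libraries. With the replicate block 0 genes passed (467 unadjusted). The log2 fold change of Pik3ip1 was -2.01 to -1.33 without single libraries and -1.65 to -1.37 under the other alternatives. Of 160 alternative values of the 10 genes, 31 had the other sign: 9 for Sesn1, 7 each for Tsc22d3 and Foxo3, 6 for Sgk1 and 1 each for Klf9 and Nr3c1, with -0.15 and -0.31 for the last pair without sensitive replicate 2. All 160 lay within 1 SD of the reported value, where the SD is the spread of log2 CPM between libraries within groups. That margin is wide, since leaving out 1 of 3 libraries can hardly shift a group mean by more than that SD. No stability of the fold changes is read from it.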

Other observations

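Pan-endothelial genes lay to one side in their fitted levels, while LSEC markers were mixed. Of 14 LSEC markers tested, 4 had a higher and 10 a lower level in the resistant group (median -0.41). The groups did not overlap for 0 of them, and 0 had an unadjusted p under 0.05 in edgeR. The pan-endothelial sums overlapped, with 262.5 to 477.9 CPM in the sensitive and 62.1 to 400.4 CPM in the resistant libraries. All 14 pan-endothelial markers had a lower fitted level in the resistant group, scaled by TMM, at a median of -1.14 and a range of -1.94 to -0.0011 on the log2 scale, 6 of them with groups that did not overlap and an unadjusted p under 0.05 (Egfl7, Emcn, Tek, Kdr, Vwf and Erg), against 3.38% of all genes tested for a separation in that direction and 3.08% for the unadjusted p, and 0 passed an adjusted p of 0.05 in edgeR. All 12 neutrophil markers were lower as well (median -1.68), 2 of them, Csf3r and Retnlg, with an unadjusted p under 0.05, and 0 passed the adjusted threshold. Of 9 hepatocyte markers tested, 8 lay the other way (median 1.00), with Fga at an unadjusted p under 0.05 and 0 past the adjusted threshold.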
